A study of Homo sapiens with 18 samples.

Results

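The comparison described here is between a pair of short hairpin RNAs against AHR in Kelly cells, an established human neuroblastoma line with amplified MYCN. The labels name the hairpins shAhR-1 and shAhR-2 and give both the genotype AhR knockdown. Its members are 6 of the 18 libraries in the series, 3 for each hairpin, and every gene of the count table was considered. The 3 Kelly libraries with the vector pLKO-GFP (treatment pLKO, genotype control) entered the same fit, and the corresponding 6 hairpin libraries and 3 vector libraries of BE2C, another MYCN-amplified neuroblastoma line, serve only for a comparison at the end. The series compares these lines with and without knockdown of the receptor. No dose, time after infection, selection or clone is given in the labels, and a control with a non-targeting hairpin is not among the groups. Whether the replicates of a group were separate cultures is not stated, so the p-values rest on a spread between libraries that may be only technical.

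The product of AHR, the aryl hydrocarbon receptor, is a transcription factor that waits in the cytoplasm with HSP90, enters the nucleus when a ligand binds, pairs with ARNT or ARNT2 and binds DNA at the core letters GCGTG. Its best known targets are the cytochrome P450 genes CYP1A1 and CYP1B1 and its own repressor AHRR. A short hairpin RNA is cut by DICER1 and loaded into an Argonaute protein, which then silences transcripts that pair with it, and a pair of hairpins with different sequences is commonly used because each can also act on transcripts other than its target. Neuroblastoma arises from the sympathetic nervous lineage, whose cells make catecholamines and depend on a set of adrenergic transcription factors. The sources used here give no hairpin sequence, so none is shown.

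The targeted gene was near the limit of detection in every Kelly library. AHR (chromosome 7, 16916359 to 17346152, plus strand) had 18, 11 and 22 counts in the libraries labelled shAhR-1 and 0, 4 and 0 counts with shAhR-2, against 4, 26 and 29 counts in the vector libraries. The hairpin groups did not overlap, whereas the libraries labelled shAhR-1 lay inside the range of the vector libraries. Pooled over libraries and scaled to library size, the count rate in those labelled shAhR-1 was 14.7 times that with shAhR-2 (exact 95% interval 5.39 to 55.8, counting error only). With halved counts, tried in case the reads of a pair were counted separately, the interval was 3.74 to 130. An exact two-sided permutation test gave p = 0.1, the smallest that 3 libraries against 3 allow. Fitted over all genes, the difference was 3.74 ± 0.82 (log2 fold change ± SE; edgeR adjusted p = 5.99e-05). Against the vector, AHR differed by -0.10 ± 0.54 in the libraries labelled shAhR-1 (edgeR adjusted p = 0.889) and by -3.84 ± 0.81 with shAhR-2 (edgeR adjusted p = 3.41e-05). With 4 counts in the shAhR-2 group, the fitted values against it depend on a prior count. A lower AHR level than in the vector was therefore called with shAhR-2 only, from counts near the floor. The shAhR-2 and vector libraries overlapped too: vector replicate 1, at 0.0905 CPM, lay below shAhR-2 replicate 2, at 0.0948 CPM. The label of the other group was not borne out by this gene, for which reason its libraries are called "labelled shAhR-1" throughout. It was not contradicted either: with an SE of 0.54, a moderate decrease from the vector could be neither detected nor excluded. Of the exonic bases of AHR, 32.3% overlap another annotated gene, and reads from both could not be told apart.

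**Figure D1:**
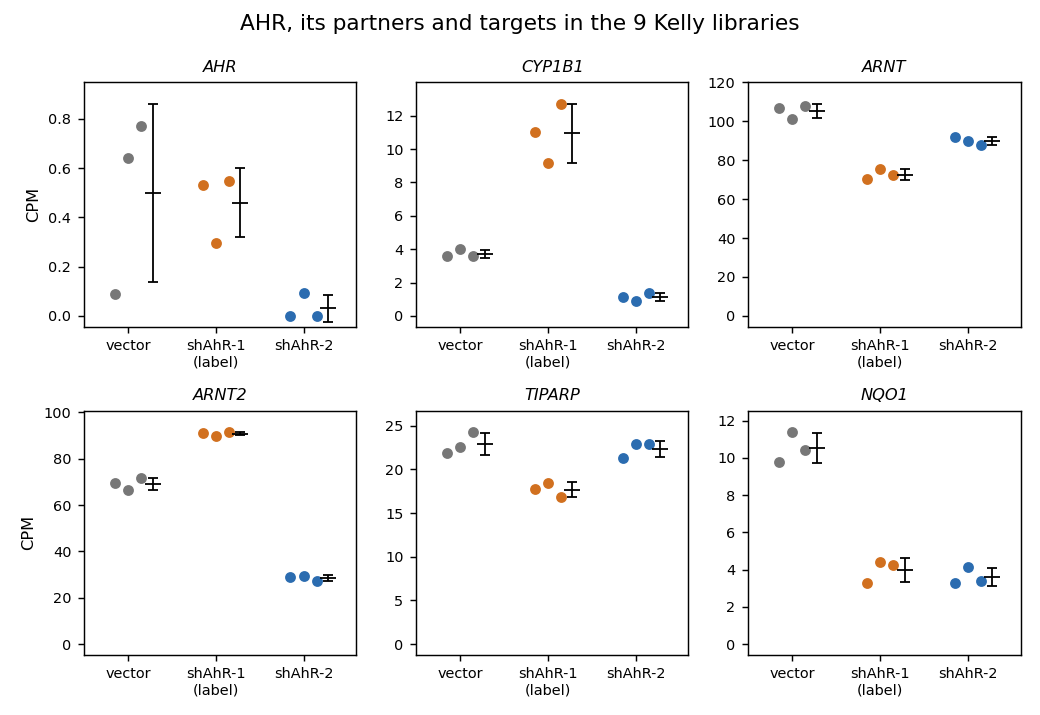
CPM (counts scaled to library size) of AHR, CYP1B1, ARNT, ARNT2, TIPARP and NQO1 in the 9 Kelly libraries; points are libraries and the black mark beside them is the mean ± SD of 3. CYP1B1 and ARNT2 lie above the vector in the libraries labelled shAhR-1 and below it with shAhR-2, and NQO1 lies below the vector with both.

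The hairpins gave very different transcriptomes. Of 39368 genes in the table, 15871 passed the filter on low counts, and 12289 of these (77.4%) were called different between the hairpins (adjusted p below 0.05, Benjamini-Hochberg). The libraries labelled shAhR-1 were higher for 6231 genes (39.3%) and lower for 6058 (38.2%), with a median log2 difference of 0.01 over all genes tested. The scaling of the libraries itself centres the differences near 0 (median -0.009 with the alternative RLE scaling). The even split is therefore largely set by the scaling, and all directions are relative to the bulk of genes. A difference of more than 2-fold was called for 2339 genes higher (14.7%) and 2457 lower (15.5%). The 3 libraries of each hairpin did not overlap for 12566 genes (79.2%). With most genes called, a call alone says little, so each gene group below is read against these shares and by the size of its differences. In what follows, higher and lower refer to the libraries labelled shAhR-1 relative to shAhR-2 unless another reference is named.

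The replicate libraries were close to each other and the hairpins far apart. Over 10832 genes, log2 CPM correlated at 0.997 to 0.998 between libraries of the same hairpin and at 0.836 to 0.838 between the hairpins. The libraries labelled shAhR-1 correlated with the vector libraries at 0.953 to 0.955, and the shAhR-2 libraries at 0.869 to 0.870. These values describe the libraries, since all of them share a line and a method. Total counts were 32799682 to 39260506 in the libraries labelled shAhR-1 and 40427823 to 45268420 with shAhR-2. Mitochondrially encoded genes took 17.4% to 17.7% of counts in those labelled shAhR-1 and 15.2% to 15.8% with shAhR-2, without overlap, and leaving those genes out gave 6239 genes higher and 6053 lower.

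**Figure D2:**
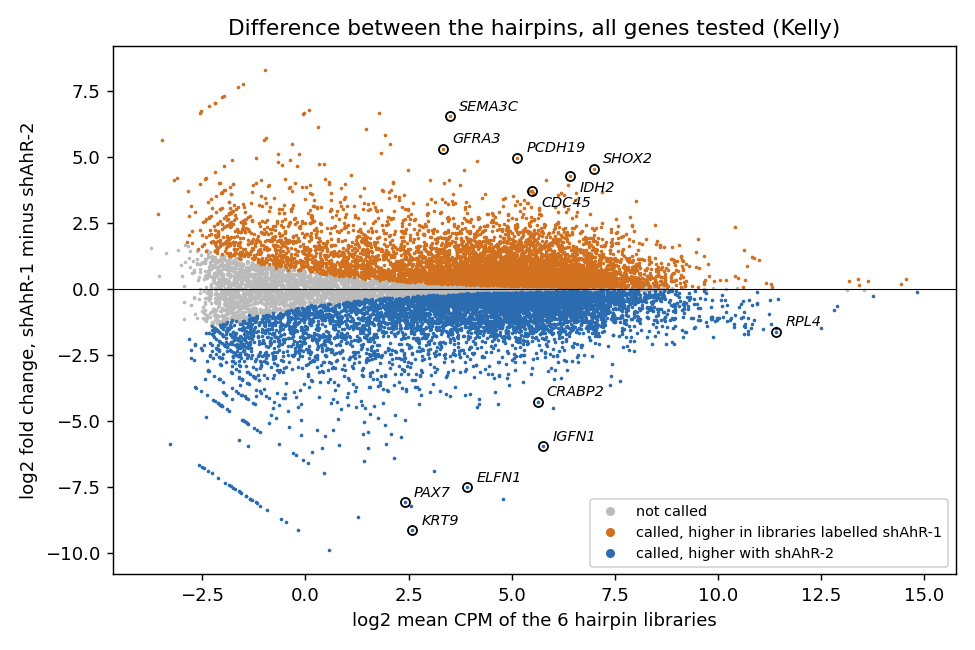
Log2 fold change between the hairpins (libraries labelled shAhR-1 minus shAhR-2) against log2 mean CPM of the 6 hairpin libraries for the 15871 genes tested; orange and blue points are the 6231 genes called higher and the 6058 called lower, and open circles mark genes described in the text. Calls reach down to small differences among abundant genes, and the diagonal lines of points at the left are genes with no or few counts in 1 hairpin.

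Genes of DNA replication were higher throughout. Of 30 such genes tested, 30 were called higher and none lower, against 39.3% called higher among all genes, and 29 were higher by more than 2-fold. Their differences ran from 0.83 to 4.14 with a median of 2.54 on the log2 scale, against 0.01 for all genes. The members cover the steps of replication: the MCM helicase subunits, its GINS and CDC45 partners, the licensing factor CDT1, the clamp PCNA and its RFC loaders, and the enzymes that supply nucleotides (RRM1, RRM2, TYMS, TK1). In bulk RNA, fewer cells in a state and less RNA per cell cannot be told apart.

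The promoters of several of these genes carry letters of the type bound by E2F factors, which drive genes of S phase, and some are shown because the genes moved together. The search covered TTTCGCGC, TTTGGCGC, TTTCCCGC and TTTGCCGC on both strands in the 250 bases before each RefSeq start, and it was chosen after the values were seen. Matches on opposite strands can overlap. Of 35116 windows in the RefSeq table (GRCh38.p14), 2.79% held a match, and of the 33 windows of the 26 replication genes found there, 10 did (30.3%). The members with a match and the largest differences are given below 5′ to 3′ on the gene's strand, with the matching letters in capitals. CDT1 is on chromosome 16 at 88803714 to 88803788 (plus strand), E2F1 on chromosome 20 at 33686386 to 33686458 (minus), GINS2 on chromosome 16 at 85688955 to 85689025 (minus) and TYMS on chromosome 18 at 657574 to 657652 (plus).
CDT1: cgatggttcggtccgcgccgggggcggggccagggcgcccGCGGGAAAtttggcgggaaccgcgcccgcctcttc
E2F1: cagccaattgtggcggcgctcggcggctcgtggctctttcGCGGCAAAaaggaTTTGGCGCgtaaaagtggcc
GINS2: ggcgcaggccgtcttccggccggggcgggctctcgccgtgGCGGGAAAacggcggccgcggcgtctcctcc
TYMS: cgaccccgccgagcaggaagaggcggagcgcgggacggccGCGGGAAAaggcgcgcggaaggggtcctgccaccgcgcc
The first match begins 35 bases before the start of CDT1, 33 before that of E2F1, 31 before that of GINS2 and 39 before that of TYMS. These genes were higher by 3.72, 3.56, 2.97 and 2.58 on the log2 scale, in that order. Among mitosis genes, 2 of 22 windows held a match (9.09%). A match is a description of the letters and not evidence that a factor binds there.

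CDC45, an activator of the replicative helicase, stood at 85.1, 84.9 and 82.6 CPM in the libraries labelled shAhR-1 and at 6.50, 6.99 and 5.67 CPM with shAhR-2. The group means were 13.2-fold apart, with a log2 difference of 3.72 ± 0.059 (edgeR adjusted p = 6.76e-46). CDT1, which loads the helicase onto origins, showed 78.2, 81.4 and 74.7 CPM against 5.45, 6.64 and 5.69 CPM, a log2 difference of 3.72 ± 0.061. GINS4, a helicase subunit, had the widest gap of the group, with 21, 21.9 and 20.1 CPM against 1.20, 1.19 and 1.17 CPM (4.14 ± 0.11). For all 3 genes the vector libraries resembled those labelled shAhR-1: the vector means were 93.8 ± 4.71 CPM for CDC45, 77.5 ± 1.43 for CDT1 and 22.9 ± 0.720 for GINS4 (SD, n = 3).

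The same held for the group. Against the vector, 8 replication genes were called higher and 9 lower in the libraries labelled shAhR-1, with a median of 0.01, and 30 of 30 were called lower with shAhR-2, with a median of -2.68. Among all genes, 29.6% were called higher and 31.0% lower than the vector in the former, and 38.2% lower in the latter. Both contrasts share the vector libraries. The smallest difference between the hairpins belonged to POLA1, the catalytic subunit of DNA polymerase alpha, at 31.4 ± 1.94 against 17.6 CPM, and here the vector, at 89.5 ± 3.45 CPM, lay above both. RFC3 and GINS1 were also below the vector in the libraries labelled shAhR-1, at 69.7 ± 2.73 against 127 ± 0.783 CPM and at 31.3 ± 0.984 against 65.2 ± 2.63 CPM.

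Genes of mitosis followed. Of 25 tested, 25 were called higher, against 39.3% of all genes, and 24 by more than 2-fold, against 14.7%. Their differences ran from 0.23 to 3.27 with a median of 1.89. AURKB, the kinase of the chromosomal passenger complex, stood at 71.4, 79.7 and 73.2 CPM in the libraries labelled shAhR-1 and at 8.10, 7.23 and 7.90 CPM with shAhR-2 (log2 difference 3.27 ± 0.059, edgeR adjusted p = 1.30e-43). MKI67, which encodes the proliferation marker Ki-67, stood at 639, 620 and 545 CPM against 113, 112 and 106 CPM (2.45 ± 0.037), and the spindle factor TPX2 at 325, 327 and 303 CPM against 63.7, 60.7 and 58.4 CPM (2.39 ± 0.034). Against the vector the medians were -0.17 in the libraries labelled shAhR-1 (3 higher, 16 lower) and -2.21 with shAhR-2 (25 of 25 lower). MAD2L1, a spindle checkpoint protein, was the exception in size: at 34.1 ± 0.837 and 29.2 CPM both hairpins lay far below the vector at 133 ± 4.46 CPM.

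**Figure D3:**
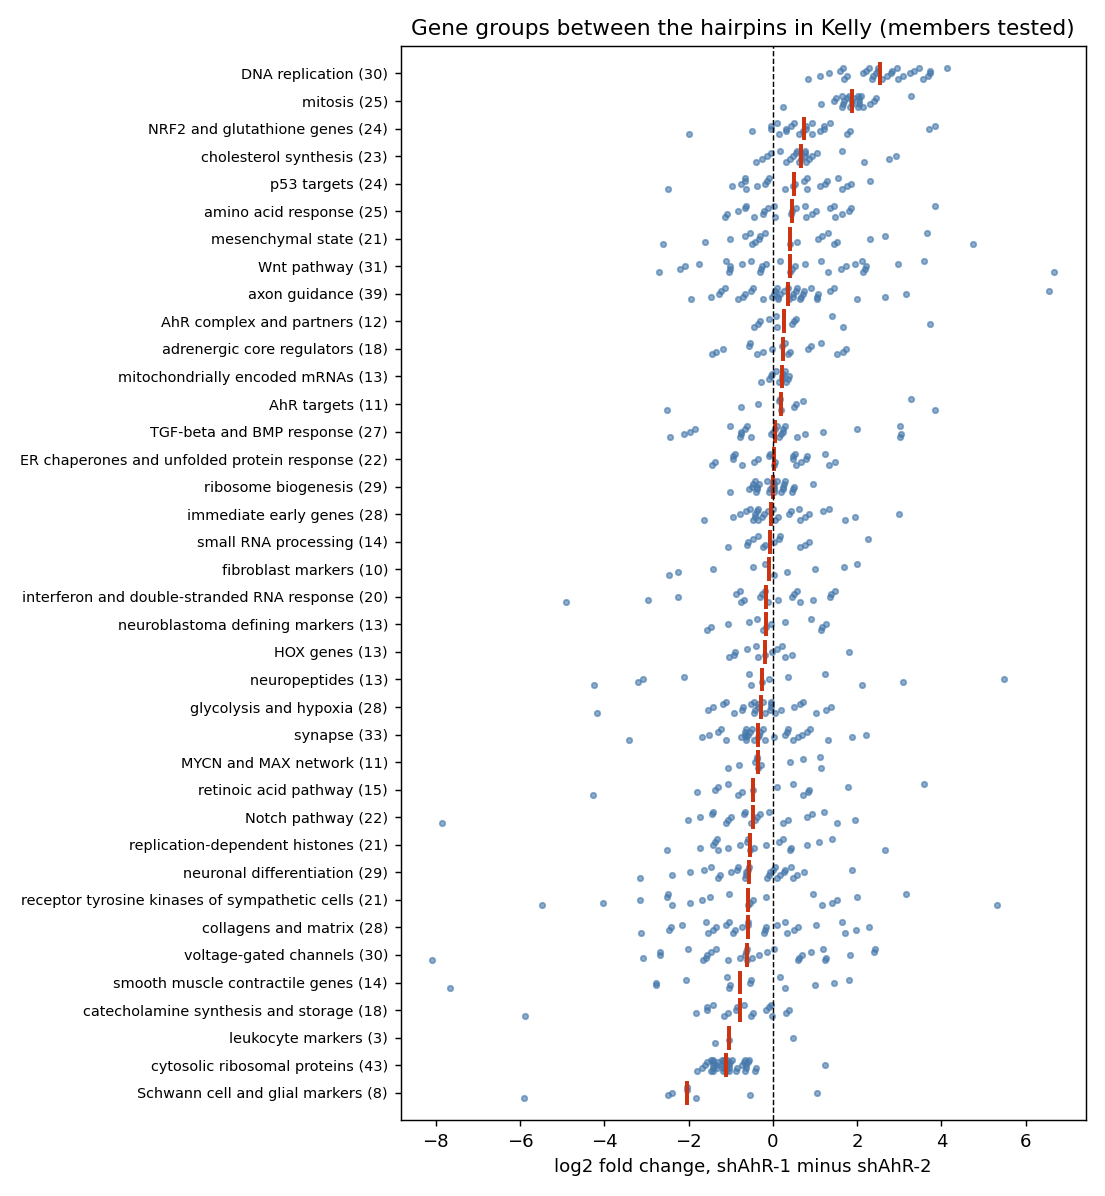
Log2 fold change between the hairpins (libraries labelled shAhR-1 minus shAhR-2) for the members tested of each of 38 gene groups, ordered by the median (red bar); the number tested is in brackets and the dashed line is the median of all genes tested (0.01). DNA replication and mitosis lie at the top with all members tested above 0, cytosolic ribosomal proteins lie below 0 except RPS24, and most other groups spread over both sides.

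Nearly all genes of the cytosolic ribosome were shifted the other way, by a smaller amount. Of 43 ribosomal protein genes tested, 42 were called lower, against 38.2% of all genes, 29 of them by more than 2-fold, and 1 was called higher. The median was -1.10 and the lowest value -1.80. RPL4, a protein of the large subunit, was at 1313, 1315 and 1389 CPM in the libraries labelled shAhR-1 and at 4126, 4095 and 4101 CPM with shAhR-2 (-1.62 ± 0.026, edgeR adjusted p = 1.75e-45). RPS18, a protein of the small subunit, was at 775, 784 and 851 CPM against 2600, 2588 and 2604 CPM (-1.69 ± 0.028). The vector lay between the hairpins for both, at 2301 ± 67.0 and 1282 ± 24.7 CPM. For the group the medians against the vector were -0.39 in the libraries labelled shAhR-1 (40 of 43 lower) and 0.67 with shAhR-2 (42 of 43 higher, against 37.2% of all genes).

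The exception was RPS24, a small subunit protein, at 1095, 1147 and 1195 CPM in the libraries labelled shAhR-1 and 487, 479 and 489 CPM with shAhR-2 (1.24 ± 0.028). Its vector libraries averaged 1387 ± 22.5 CPM, so shAhR-2 was far below both other groups. Ribosomal protein genes have many near-identical pseudogenes, and how such reads were assigned is not stated, so single members are uncertain. Genes for building ribosomes were not shifted as a group: 10 of 29 were called higher and 11 lower, with a median of 0.01. The nucleolar chaperone NPM1 was lower, with means of 1602 and 2364 CPM (-0.56 ± 0.025), and TCOF1, a nucleolar factor for ribosomal RNA transcription, was higher, with means of 224 and 116 CPM (0.96 ± 0.033).

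The widest differences among genes with a mean of at least 5 CPM belonged to genes nearly silent with 1 hairpin. KRT9, a keratin of palm and sole skin, had 2, 0 and 0 counts in the libraries labelled shAhR-1 and 505, 517 and 508 counts with shAhR-2, a count rate 665 times higher with shAhR-2 (exact 95% interval 184 to 5500). AQP2, a water channel of the kidney, had 2, 2 and 0 counts against 463, 517 and 510 (324 times, 126 to 1191), and PAX7, a transcription factor of muscle and neural crest precursors, had 0, 0 and 4 counts against 389, 439 and 531 (296 times, 115 to 1086). Fitted log2 values for these 3 genes depend on a prior count and are not given. Those of VWA5B1, ELFN1 and AMHR2 also rest on few counts in the libraries labelled shAhR-1 (24, 18 and 16 in all). ELFN1, a synaptic adhesion protein, averaged 0.166 CPM against 30.1 CPM (-7.51 ± 0.17), VWA5B1 0.207 against 55.0 CPM (-7.97 ± 0.16), AMHR2, the receptor of anti-Müllerian hormone, 0.141 against 17.3 CPM (-6.88 ± 0.21), IGFN1 1.71 against 107 CPM (-5.96 ± 0.093) and the phosphatase PPM1J 0.322 against 10.3 CPM (-4.98 ± 0.20). All 8 genes were low in the vector as well, with means from 0.260 CPM for KRT9 to 5.40 CPM for IGFN1, and each was called higher than the vector with shAhR-2.

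On the other side, SEMA3C, a secreted axon guidance cue, stood at 23.6, 20.8 and 23.0 CPM in the libraries labelled shAhR-1 and at 0.300, 0.237 and 0.177 CPM with shAhR-2 (6.56 ± 0.17, edgeR adjusted p = 1.91e-36). GFRA3, the co-receptor of artemin, was at 17.2, 23.1 and 18.6 CPM against 0.300, 0.474 and 0.664 CPM (5.33 ± 0.18). SHOX2, a homeobox factor, was at 256, 245 and 234 CPM against 10.4, 10.1 and 10.8 CPM (4.56 ± 0.047), and IDH2, the mitochondrial isocitrate dehydrogenase, at 160, 160 and 168 CPM against 8.27, 8.13 and 8.72 CPM (4.28 ± 0.048). Protocadherins PCDH19 (4.99 ± 0.078) and PCDH18 (4.52 ± 0.11), the G protein subunit GNG11 (4.87 ± 0.11) and EYS (4.51 ± 0.21) completed the highest 8. They did not share a position relative to the vector. PCDH19 had 69.5 ± 2.56 CPM in the vector, beside 67.9 CPM in the libraries labelled shAhR-1 and 2.16 CPM with shAhR-2, while EYS had 0.425 ± 0.228 CPM in the vector, beside 10.8 and 0.471 CPM.

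Several genes lay on opposite sides of the vector with the 2 hairpins, each called in both contrasts. SEMA3C was 3.12 above the vector on the log2 scale in the libraries labelled shAhR-1 and -3.44 from it with shAhR-2, with 2.58 ± 0.376 CPM in the vector. GFRA3 gave 2.82 and -2.51, GNG11 2.07 and -2.79, SHOX2 1.92 and -2.64, the heparan sulfate sulfotransferase HS3ST4 1.80 and -1.74, and LURAP1L 1.58 and -1.82. In the reverse direction, AMHR2 gave -3.71 and 3.17, PPM1J -2.55 and 2.42, and PTER -2.27 and 2.10.

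**Figure D4:**
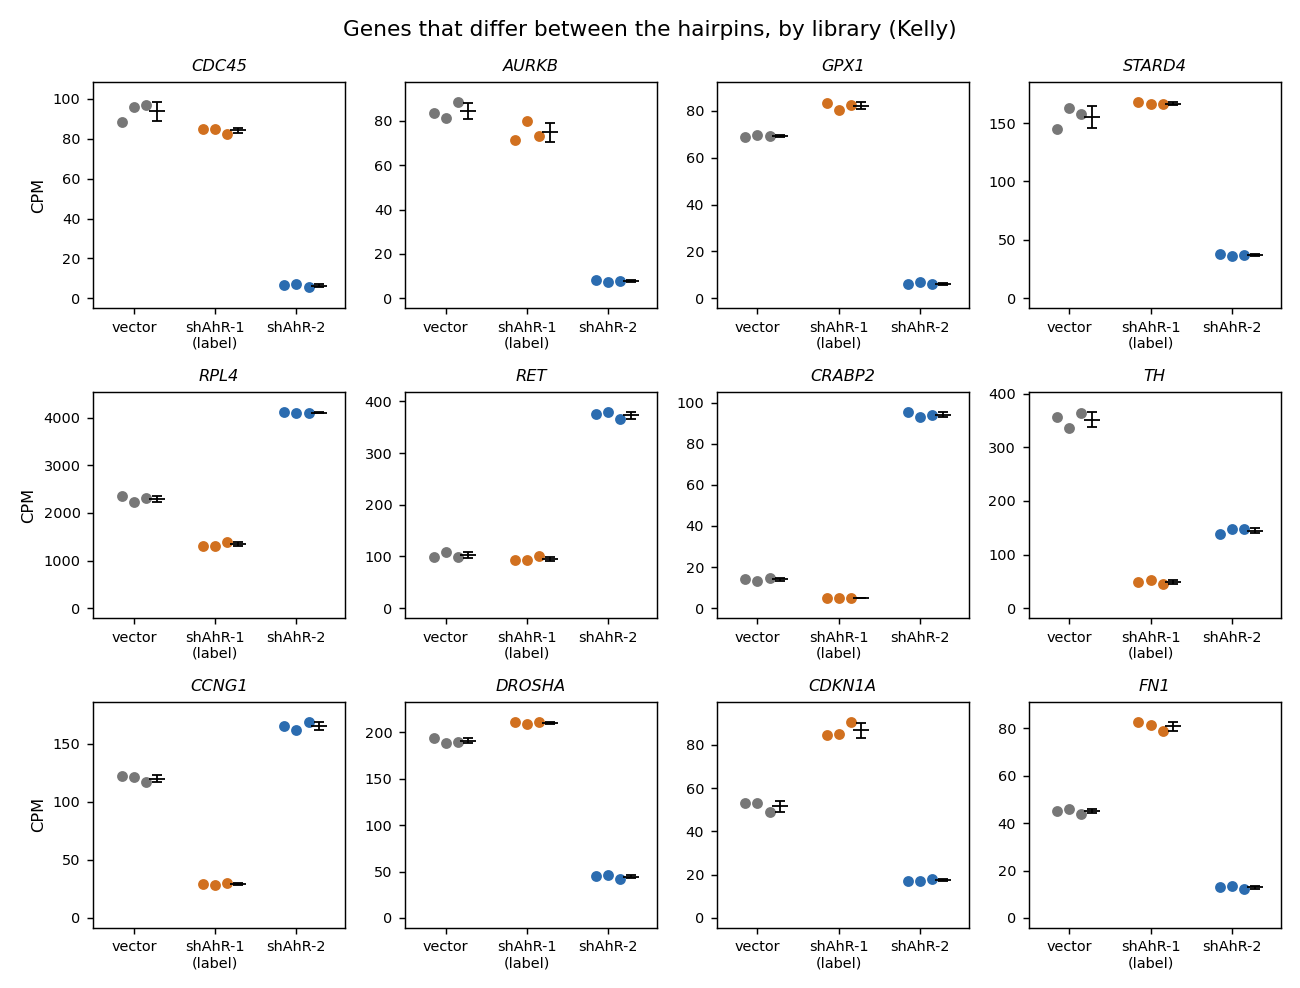
CPM of 12 genes that differ between the hairpins in the 9 Kelly libraries; points are libraries and the black mark is the mean ± SD of 3. All 12 were named by a rule that takes only genes without overlap between the hairpins. CDC45, AURKB, GPX1, DROSHA and STARD4 are far below the vector with shAhR-2, and RPL4, CRABP2 and CCNG1 lie below the vector in the libraries labelled shAhR-1 and above it with shAhR-2.

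The receptor's own pathway did not move as a unit. Of 12 genes of the receptor complex and its partners, 8 were called higher and 4 lower, with a median of 0.27. The partner ARNT was lower, at 70.1, 75.5 and 72.3 CPM against 91.7, 89.7 and 87.7 CPM (-0.30 ± 0.038, edgeR adjusted p = 7.04e-10), and its relative ARNT2 was higher, at 91.2, 90.0 and 91.4 CPM against 29.0, 29.5 and 27.3 CPM (1.67 ± 0.044). The co-repressor NRIP1 was higher, with means of 132 and 49.8 CPM (1.41 ± 0.038), as was the kinase SRC, with means of 81.6 and 55.5 CPM (0.56 ± 0.043). Of 11 target genes tested out of 15, 4 were called higher and 3 lower, with a median of 0.19, close to that of all genes. Their differences ran from -2.51 to 3.84, with 2 called higher and 1 lower by more than 2-fold.

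Among the targets, CYP1B1 (chromosome 2, 38066973 to 38109902, minus strand) showed the wider gap of the named ones, at 11, 9.17 and 12.7 CPM in the libraries labelled shAhR-1 and 1.12, 0.901 and 1.35 CPM with shAhR-2 (3.28 ± 0.16, edgeR adjusted p = 7.75e-25). It was above the vector (3.73 ± 0.242 CPM) in the former and below it in the latter. TIPARP, a feedback repressor of the receptor, was slightly lower, at 17.7, 18.5 and 16.8 CPM against 21.3, 22.9 and 22.9 CPM (-0.34 ± 0.069). NQO1, a quinone reductase, did not pass the test between the hairpins (0.15 ± 0.14, edgeR adjusted p = 0.344), with 3.26, 4.41 and 4.27 CPM against 3.27, 4.15 and 3.41 CPM, although both were below the 10.5 ± 0.837 CPM of the vector. CYP1A1 and AHRR were at 0.279 and 0.479 CPM in the libraries labelled shAhR-1 and at 0.247 and 0.417 CPM with shAhR-2, and no difference was detectable at this depth. The receptor's core letters GCGTG occurred in 8 of 17 windows of 250 bases before the starts of target genes (47.1%), in 17 of 33 windows of replication genes (51.5%) and in 32.2% of all windows. They also occurred in 14 of 22 windows of mitosis genes (63.6%) and in 17 of 43 of ribosomal protein genes (39.5%), so they were not particular to the targets.

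MYCN and its network were mixed. MYCN, the amplified oncogene of this line, was at 2414, 2459 and 2398 CPM in the libraries labelled shAhR-1 and at 3114, 3184 and 3143 CPM with shAhR-2 (-0.38 ± 0.026, edgeR adjusted p = 1.01e-18), both below the 4816 ± 218 CPM of the vector. Of 11 genes of the MYCN and MAX network, 4 were called higher and 7 lower, with a median of -0.36. MXD4 and MXD1, which compete with MYC proteins for MAX, were lower (-1.06 ± 0.052 and -0.81 ± 0.087), and MXD3, a relative, was higher (1.14 ± 0.12).

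Genes that make and store catecholamines were mostly lower. Of 18 tested, 13 were called lower and 2 higher, against 38.2% and 39.3% of all genes, with a median of -0.77. TH, the rate-limiting enzyme of the pathway, was at 48.4, 53.2 and 45.7 CPM in the libraries labelled shAhR-1 and at 139, 147 and 147 CPM with shAhR-2 (-1.56 ± 0.040, edgeR adjusted p = 5.74e-37). DBH, which makes noradrenaline from dopamine, was at 207, 205 and 196 CPM against 418, 426 and 426 CPM (-1.06 ± 0.028). Both were well below the vector with either hairpin, which had 352 ± 14.1 CPM of TH and 1375 ± 41.4 CPM of DBH. The secretory granule protein SCG2 was above the vector with both instead (42.6 ± 1.59 CPM in the vector, means of 138 and 485 CPM in the hairpin groups, -1.82 ± 0.030 between them), and the vesicular transporter SLC18A2 was at 29.8 against 87.2 CPM (-1.55 ± 0.044). The 2 members called higher were the noradrenaline transporter SLC6A2 (0.39 ± 0.043) and the degrading enzyme MAOA (0.31 ± 0.031).

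The adrenergic transcription factors divided. Of 18 tested, 10 were called higher and 7 lower, with a median of 0.25. GATA2 was lower, at 898, 907 and 916 CPM against 2315, 2312 and 2257 CPM (-1.34 ± 0.025), where the vector had 940 ± 7.47 CPM, and TBX2 behaved alike (means of 223 and 504 CPM, -1.18 ± 0.028). TFAP2B was higher, at 424, 433 and 404 CPM against 122, 129 and 130 CPM (1.73 ± 0.031), as were EYA1 (1.67 ± 0.034), HAND2 (means of 636 and 287 CPM, 1.15 ± 0.027) and, by less, GATA3 (means of 517 and 422 CPM, 0.29 ± 0.029).

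Receptors for neurotrophic and other growth factors showed some of the widest splits. Of 21 receptor tyrosine kinases and co-receptors tested, 14 were called lower and 7 higher, against 38.2% and 39.3% of all genes. By more than 2-fold, 10 were lower and 6 higher, against 15.5% and 14.7% of all genes. The median was -0.58. RET, the signalling receptor of the GDNF family, was at 93.0, 93.3 and 100 CPM in the libraries labelled shAhR-1 and at 375, 379 and 366 CPM with shAhR-2 (-1.96 ± 0.035, edgeR adjusted p = 5.93e-44), with 103 ± 5.63 CPM in the vector. Its co-receptors went opposite ways, with GFRA2 at means of 32.2 and 183 CPM (-2.50 ± 0.042) and GFRA3 higher, as given above. LTK was lower (-4.02 ± 0.16), its relative ALK higher (means of 59.7 and 26.4 CPM, 1.17 ± 0.049), and FGFR1 (1.53 ± 0.056) and EGFR (1.41 ± 0.068) were higher.

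Neuronal genes were lower more often than higher, with many exceptions. Of 29 genes of neuronal differentiation, 16 were called lower and 9 higher (median -0.57), against 38.2% and 39.3% of all genes. L1CAM, an adhesion molecule of growing axons, had means of 183 and 568 CPM (-1.63 ± 0.029), whereas the synaptic vesicle protein SYN1 had means of 34.0 and 9.18 CPM (1.88 ± 0.074). In the synapse group 21 of 33 were called lower and 11 higher (median -0.35), with RAB3A, a regulator of vesicle release, at 11.6, 11.2 and 10.6 CPM against 120, 118 and 120 CPM (-3.42 ± 0.059). Of 30 voltage-gated channel genes, 18 were called lower and 10 higher (median -0.61), among them the sodium channel subunits SCN3B (means of 20.9 and 134 CPM, -2.68 ± 0.050) and SCN1A (means of 43.8 and 8.13 CPM, 2.43 ± 0.082). Against the vector, the medians of these 3 groups with shAhR-2 were 0.72, 0.52 and 0.80, and in the libraries labelled shAhR-1 they were -0.01, 0.18 and 0.21.

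Among neuropeptides, 6 of 13 were called lower and 5 higher, or 3 higher once genes averaging under 1 CPM were left out. CARTPT, the precursor of the CART peptides, was at 4.71, 4.49 and 4.32 CPM against 40.1, 42.6 and 41.7 CPM (-3.20 ± 0.076), and SST, somatostatin, with means of 79.9 and 18.6 CPM (2.11 ± 0.063). In the retinoic acid pathway 8 of 15 were called lower and 6 higher (median -0.47), or 3 higher under the same filter. CRABP2, which carries retinoic acid to its nuclear receptors, was at 5.04, 4.89 and 4.69 CPM in the libraries labelled shAhR-1 and at 95.5, 93.2 and 93.8 CPM with shAhR-2 (-4.27 ± 0.065, edgeR adjusted p = 1.63e-46), with 14 ± 0.871 CPM in the vector. The receptor RARG was lower (-1.36 ± 0.079) and RXRA higher (0.84 ± 0.040).

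Metabolic groups differed in direction. Of 23 genes of cholesterol synthesis and uptake, 19 were called higher and 3 lower (median 0.68), against 39.3% and 38.2% of all genes. STARD4, which carries sterols between membranes, was at 168, 166 and 166 CPM against 37.5, 36.4 and 37.0 CPM (2.17 ± 0.039, edgeR adjusted p = 1.5e-43). Against the vector the group medians were -0.35 in the libraries labelled shAhR-1 and -1.06 with shAhR-2. Of the 3 called lower, the calls of EBP and SC5D were lost without shAhR-2 replicate 1 (log2 differences of -0.17 and -0.11), and that of EBP also without shAhR-1 replicate 3 (-0.18), leaving TM7SF2 (-0.39 ± 0.092).

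NRF2 and glutathione response genes were called higher in 17 of 24 cases and lower in 1, against 39.3% and 38.2% of all genes. The median was 0.75. GPX1, a selenium-dependent glutathione peroxidase (chromosome 3, 49357171 to 49358600, minus strand), was at 83.6, 80.6 and 82.7 CPM against 6.05, 6.78 and 6.02 CPM (3.71 ± 0.057, edgeR adjusted p = 1.82e-46), and the vector had 69.5 ± 0.428 CPM. The glutathione transferase GSTP1 (1.83 ± 0.034) and KEAP1, the inhibitor of NRF2 (1.76 ± 0.041), were higher, and GSTM2, another transferase, was lower (-1.99 ± 0.059). The count of members called lower became 2 under several alternatives, RLE scaling and DESeq2 among them.

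Of 28 genes of glycolysis and the hypoxia response, 16 were called lower and 7 higher (median -0.29), against 38.2% and 39.3% of all genes. NDRG1, which hypoxia and differentiation induce, was at 2.25, 2.03 and 1.62 CPM against 36.7, 35.5 and 33.5 CPM (-4.17 ± 0.10), while the glycolytic enzyme PKM was at 1003, 1046 and 1024 CPM against 388, 390 and 393 CPM (1.39 ± 0.026). In the amino acid response 14 of 25 were called higher and 9 lower (median 0.46), against 39.3% and 38.2% of all genes. PHGDH and PSPH, enzymes of serine synthesis, were higher (1.80 ± 0.038 and 1.48 ± 0.061), and SHMT2, which uses serine, and TRIB3 were lower (-1.14 ± 0.040 and -1.09 ± 0.075). Of 22 chaperones and unfolded protein response genes, 11 were called higher and 9 lower (median 0.04), with the calcium-binding chaperone CALR higher (means of 392 and 142 CPM, 1.47 ± 0.030) and DNAJB9 lower (-1.44 ± 0.082).

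Targets of p53 were called higher in 14 of 24 cases and lower in 8 (median 0.50), against 39.3% and 38.2% of all genes. CDKN1A, which encodes the cell cycle inhibitor p21, was at 84.7, 84.9 and 90.7 CPM in the libraries labelled shAhR-1 and at 17.3, 17.0 and 18.2 CPM with shAhR-2 (2.31 ± 0.051, edgeR adjusted p = 1.03e-39), with 51.6 ± 2.42 CPM in the vector. CCNG1, another target, went the other way, at 28.9, 28.8 and 30.3 CPM against 165, 162 and 169 CPM (-2.49 ± 0.039), with 120 ± 2.51 CPM in the vector. The death receptor TNFRSF10B was higher (1.76 ± 0.037). CDKN1A was lowest in the same libraries in which replication and mitosis genes were lowest.

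The machinery that handles small RNAs was not shifted as a whole: 6 of 14 genes were called higher and 7 lower, with a median of -0.07. DROSHA, the nuclease that releases microRNA precursors from primary transcripts, was at 211, 209 and 211 CPM against 44.7, 46.2 and 42.4 CPM (2.25 ± 0.035, edgeR adjusted p = 3.36e-46), and the vector had 191 ± 2.81 CPM. AGO2, the slicing Argonaute, was higher (means of 153 and 83.4 CPM, 0.87 ± 0.037), while AGO3, AGO4 and their partner TNRC6A were lower (-0.58 ± 0.048, -0.61 ± 0.050 and -1.06 ± 0.038). Interferon and double-stranded RNA response genes were called lower in 11 of 20 cases and higher in 7 (median -0.15). The shares of all genes were 38.2% lower and 39.3% higher. STAT2 was lower (-0.76 ± 0.066) and B2M higher (0.96 ± 0.053), and the call of HLA-C (-0.30 ± 0.12, edgeR adjusted p = 0.0235) was lost when any of shAhR-1 replicates 1 and 2 or shAhR-2 replicates 1 and 3 was left out, with values from -0.23 to -0.30.

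Matrix, mesenchymal and signalling groups held wide differences both ways. Of 28 collagens and matrix genes, 16 were called lower and 9 higher (median -0.59), against 38.2% and 39.3% of all genes. The proteoglycan BCAN was lower (means of 2.99 and 26.2 CPM, -3.12 ± 0.10) and the microfibril protein FBN1 higher (means of 45.3 and 9.26 CPM, 2.29 ± 0.072). Of 21 genes of the mesenchymal state, 9 were called higher and 8 lower (median 0.41). FN1, fibronectin, was at 82.4, 81.4 and 78.7 CPM against 13.0, 13.5 and 12.1 CPM (2.66 ± 0.054), and VIM, vimentin, with means of 9.41 and 56.8 CPM (-2.60 ± 0.066), so a pair of markers usually listed together lay on opposite sides. TWIST1 was higher (1.46 ± 0.040) and ZEB1 lower (-1.01 ± 0.033). Of 14 smooth muscle contractile genes, 9 were called lower and 5 higher (median -0.77), with the tropomyosin TPM2 lower (-2.76 ± 0.076) and the myosin MYH9 higher (1.44 ± 0.036).

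In the TGF-beta and BMP group 12 of 27 were called higher and 11 lower (median 0.06). The receptors TGFBR1 and TGFBR3 were lower (-1.96 ± 0.056 and -2.45 ± 0.12), and the inhibitors of differentiation ID3 and ID4 higher (1.19 ± 0.069 and 1.99 ± 0.12). Notch pathway genes were called lower in 14 of 22 cases and higher in 7 (median -0.47), against 38.2% and 39.3% of all genes. The ligand DLL3 was lower (means of 22.9 and 62.5 CPM, -1.45 ± 0.056) and DLK1, a related membrane protein, higher (means of 768 and 333 CPM, 1.21 ± 0.030). Wnt pathway genes were called higher in 16 of 31 cases and lower in 11 (median 0.40), against 39.3% and 38.2% of all genes. The secreted inhibitors DKK1 and SFRP1 split, with DKK1 at means of 37.9 and 3.13 CPM (3.59 ± 0.087) and SFRP1 at means of 127 and 543 CPM (-2.09 ± 0.031). Axon guidance genes were called higher in 23 of 39 cases and lower in 9 (median 0.37), against 39.3% and 38.2% of all genes. EFNB2 (3.17 ± 0.093) and the SLIT receptor ROBO1 (1.99 ± 0.037) were higher and the ligand SLIT1 lower (-1.94 ± 0.057).

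Of 13 mitochondrially encoded mRNAs, 9 were called higher and 2 lower, against 39.3% and 38.2% of all genes. The median was 0.21, with a range of -0.27 to 0.38 and none beyond 2-fold. MT-CYB, cytochrome b, was higher (0.38 ± 0.033) and MT-ND1, a subunit of complex I, lower (-0.27 ± 0.028). The mitochondrial share of counts moved with the hairpins, and its part in these small differences was not tested.

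Defining markers checked the identity of the cells. All 13 neuroblastoma markers were detected with both hairpins, with summed levels of 5935 to 6082 CPM in the libraries labelled shAhR-1, 7080 to 7161 CPM with shAhR-2 and 10663 to 11358 CPM in the vector. A large part of each sum was the amplified MYCN, with means of 2424, 3147 and 4816 CPM in that order. Markers of Schwann cells and glia were called lower in 7 of 8 tested and higher in none (median -2.04), against 38.2% and 39.3% of all genes. Without shAhR-1 replicate 3 or without shAhR-2 replicate 1, 1 was called higher. Over 13 genes they summed to 19.5 to 23.0 CPM, 80.4 to 86.4 CPM and 37.0 to 39.7 CPM in the same order. Most of this was PMP22, a myelin protein that other cells also make (means of 16.4 and 67.7 CPM). FABP7 and CDH19 were at 0 with both hairpins, and S100B also in the libraries labelled shAhR-1. Of 10 fibroblast markers tested, 3 were called higher and 5 lower (median -0.08), against 39.3% and 38.2% of all genes. By more than 2-fold, 3 were called each way. None was called higher once genes averaging under 1 CPM were left out. Over 14 genes they summed to 305 to 328 and 422 to 432 CPM, so some members were expressed. FAP was at 0 in both groups and COL1A2 and POSTN at 0 with shAhR-2. Leukocyte markers summed to at most 1.60 CPM in any library.

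The same hairpins were used in BE2C, which allows the difference between them to be compared over separate libraries. AHR was at or near 0 there (8, 0 and 0 counts in the libraries labelled shAhR-1, none with shAhR-2) and was not tested. Of 15732 genes tested in BE2C, 35.9% were called higher and 36.5% lower. Over the 14680 genes tested in both lines, the log2 differences correlated across genes (Pearson r = 0.619, Spearman rho = 0.630), a description, since genes are not independent replicates. Genes called in both lines numbered 9211, of which 7616 had the same direction (65.7% of those called in Kelly, 70.3% of those called in BE2C) and 1595 the opposite one (13.8% and 14.7%). Of the Kelly differences over 2-fold, 3201 were called in the same direction in BE2C and 236 in the opposite direction.

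Among the genes with the widest differences in both lines, GPX1 was higher by 3.71 ± 0.057 in Kelly and 3.62 ± 0.076 in BE2C, the endocytic adaptor EPN1 by 3.58 and 3.34, the angiotensin receptor AGTR1 by 3.55 and 3.39 and the RNA-binding protein MEX3D by 3.06 and 2.90. ELFN1 was lower by similar amounts (-7.51 ± 0.17 and -7.62 ± 0.21), and KRT9, PAX7 and AMHR2 were called lower in both lines too. Levels in BE2C were low for PAX7 (0 against 0.337 CPM) and AMHR2 (0.0400 against 1.75 CPM). TGFBR1 (-1.96 and -2.01), SFRP1 (-2.09 and -2.06), DROSHA (2.25 and 1.95) and SYN1 (1.88 and 1.88) are further examples with close values.

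The difference between the hairpins was itself different in the lines for many genes. In 1 fit of all 18 libraries, the Kelly difference exceeded that of BE2C for 4972 of 17136 genes (29.0%) and fell short of it for 4524 (26.4%), 55.4% in all. All 30 replication genes and all 25 mitosis genes were called in the first set. In BE2C 27 of 30 replication genes were also called higher and 2 lower, but with a median of 0.94, and 22 of 25 mitosis genes higher and 2 lower, with a median of 0.41. All 43 ribosomal protein genes were called in the second set, with a BE2C median of -0.19 (9 higher, 29 lower). RPS24 was higher in BE2C as well (1.85 ± 0.029). CYP1B1, at 0.404 and 0.479 CPM in the BE2C hairpin groups, did not pass the test there (-0.25 ± 0.48), and the interaction was 3.50 ± 0.39. MYCN went the other way in BE2C (0.70 ± 0.024), as did DBH (1.12 ± 0.036), while TH was lower in both (-0.53 ± 0.052 in BE2C).

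**Figure D5:**
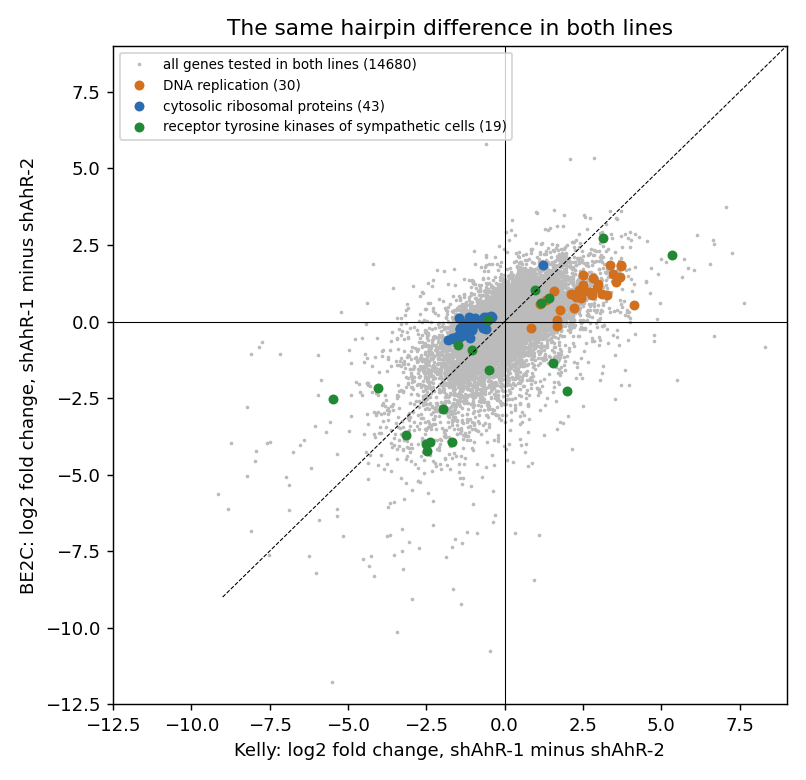
Log2 fold change between the hairpins in BE2C against that in Kelly for the 14680 genes tested in both lines, with the replication genes (30), cytosolic ribosomal protein genes (43) and receptor tyrosine kinases and co-receptors (19 tested in both) in colour; the dashed line marks equal values. Replication genes lie to the right of 0 and below the line, and ribosomal protein genes to the left of 0 and above the line except RPS24, which lies above 0 in both lines.

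Some genes were called in opposite directions in the lines. CCDC80, a secreted matrix protein, was at 26.2, 24.1 and 25.6 CPM in the Kelly libraries labelled shAhR-1 and at 5.60, 4.58 and 6.99 CPM with shAhR-2, but in BE2C at 4.34 ± 0.486 against 77.6 ± 1.19 CPM. PLK2, a stress-responsive polo-like kinase, was at 142, 143 and 160 CPM against 17.7, 18.1 and 17.8 CPM in Kelly and at 13.7 ± 0.325 against 51.5 ± 0.968 CPM in BE2C. CDKN1A and FN1 were likewise higher in Kelly and lower in BE2C (-1.50 ± 0.11 and -1.31 ± 0.077 there). In BE2C, shAhR-2 replicate 1 stood apart in its mitochondrial share (25.1%, against 20.5% in both others), and without it 4795 genes were called above and 4509 below in the interaction.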

How the data were processed

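The files hold raw counts of reads for 39368 genes, deposited by the authors as 1 table for each line. Libraries came from total RNA (miRNeasy kit) after removal of ribosomal RNA (RNA HyperPrep Kit with RiboErase), per the labels' protocols. Per the submitters' processing notes, CASAVA 1.8.2, STAR 2.7.9a and GRCh38.p7 were used. The sources used here do not give the counting tool, annotation, strand setting, read length or hairpin sequences. Even numbers made up 69.0% to 71.7% of counts from 1 to 20 in the Kelly libraries. Halved counts were therefore tried, in case the reads of a pair were counted separately.

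The 9 Kelly libraries were fitted in 1 model of the 3 groups with edgeR 4.0.16 (filterByExpr, TMM, glmQLFit, glmQLFTest). Genes with a Benjamini-Hochberg adjusted p below 0.05 over all 15871 tested were called. BE2C was fitted alike, and the difference between lines came from 1 fit of 18 libraries in 6 groups. SE values derive from the F statistic. CPM uses TMM library sizes and no gene length, so levels of different genes cannot be compared. Same-numbered libraries of different groups did not deviate together (correlations of -0.0501 to 0.0573), so no block was used.

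The comparison and its 38 gene lists (891 genes) were chosen with earlier results of these data known, and the lists are given by counts and medians with no test. Named genes are AHR, a fixed set of its partners, targets and lineage factors, and further genes taken from called genes with a mean of at least 5 CPM and no overlap between the hairpins. Of these, the rule took the 8 widest differences each way, up to 3 each way from every list, 6 of each kind on opposite sides of the vector, and 4 of each kind shared with or opposite to BE2C. Genes opposite to BE2C were taken only where the difference between lines was itself called. Further genes outside the rule, such as POLA1, RFC3, GINS1, MAD2L1, E2F1 and GINS2, were chosen after their values were seen. More than 25% of the exonic bases of AHR, MXD3, SLC18A2 and EFNB2 overlap another gene in GENCODE release 29, the source of locations.

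Alternatives were RLE scaling, other filters on low counts, a replicate block, DESeq2 1.42.0, a fit of only the 2 groups compared, leaving out each library, halved counts and a fit without mitochondrial genes. The methods were tested on simulated data for the comparison of the hairpins over 15871 genes. Of genes changed 1.5-fold 68% were recovered, of those changed 2-fold 82% and of those changed 4-fold 100%, with 3 false calls. For the difference between lines, over 17136 genes, the shares were 58%, 66% and 82%, with 8 false calls. Only a small share of genes was changed in the simulated data, evenly up and down, whereas 77.4% were called between the hairpins. How scaling and calls behave with so many changes was therefore not tested. Other software was R 4.3.3, limma 3.58.1, Python 3.11.15, scipy 1.17.1, pandas 2.3.3, numpy 2.4.6 and, for the plots, matplotlib 3.10.9. Some genes that the naming rule picks are counted in their lists but not reported here.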

Additional observations from a re-analysis of the deposited data

Results flagged for a closer look

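The difference between the hairpins was called in both lines with opposite signs for 1595 genes, MYCN, CDKN1A and FN1 among them. The 8 below are the 4 widest of each kind by the naming rule. The rule takes only genes for which the difference between lines was itself called, so their adjusted p is below 0.05 by selection. The values are log2 differences in Kelly minus those in BE2C, with edgeR adjusted p. Higher in the Kelly libraries labelled shAhR-1 and lower in those of BE2C were CCDC80 (6.27, adjusted p = 1.72e-36), the kinase PLK2 (4.94, 6.86e-40), the microfibril gene FBN1 (4.13, 3.91e-31) and the death receptor TNFRSF10B (3.47, 2.45e-32). The reverse was measured for the guidance ligand SLIT1 (-3.60, 4.08e-21), the channel subunit CNGB1 (-3.72, 1.25e-31), the growth factor CLEC11A (-3.03, 4.38e-10) and the adhesion receptor ADGRF3 (-3.49, 1.18e-11). CLEC11A and ADGRF3 were at or below 0.964 CPM in the BE2C hairpin groups.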

How the results depend on the processing

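Counts of genes called between the hairpins in Kelly stayed within 1.5 times under all 17 alternatives, from 5594 to 6340 higher and 5471 to 6213 lower, both lowest with a mean CPM of at least 1. Leaving out each library gave 6071 to 6326 higher and 5891 to 6157 lower. The difference between lines gave 4711 to 5011 above and 4424 to 4645 below when each library was left out. The samples share only a number, and the replicate block gave 6186 higher and 6001 lower in Kelly and 4909 above and 4474 below between lines. Of 224 named genes, 221 kept their side of the threshold under each of the 17 alternatives that tested them, and none reversed. The others, HLA-C, EBP and SC5D, lost their calls when 1 library was left out. AHR, CYP1A1 and AHRR were not tested with a mean CPM of at least 1, nor mitochondrial genes in the fit without them. Most named genes were taken from called genes without overlap, so this stability follows in part from the naming rule. The AHR rate ratio ran from 9.46 to 17.3 over the libraries left out and was 14.9 with halved counts (exact 95% interval 3.74 to 130). Without shAhR-2 replicate 2 no AHR count was left in that group, where the exact lower limit of the ratio was 10.3 and its value over a floor of 3 counts 13.1. Depth limits AHR, CYP1A1 and AHRR, all under 1 CPM.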

Other observations

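Zinc finger genes of chromosome 19, which encode a family of DNA-binding repressors clustered there, were higher in the libraries labelled shAhR-1 more often than other genes. This set was chosen after its values were seen and has no test. Of 231 genes on chromosome 19 whose symbol begins with ZNF, 161 were called higher (69.7%) and 32 lower, with a median log2 difference of 0.64. The shares of all genes tested were 39.3% higher and 38.2% lower. Of the other 830 genes tested on that chromosome 43.1% were called higher, with a median of 0.06. The 216 ZNF genes on other chromosomes had 106 called higher (49.1%) and 64 lower, with a median of 0.15. Against the vector the medians of the chromosome 19 set were 0.25 in the libraries labelled shAhR-1 and -0.37 with shAhR-2, contrasts that share the vector libraries. In BE2C 110 of 226 were called higher and 43 lower, against 35.9% and 36.5% of all genes there, with a median of 0.21. Of the chromosome 19 set, 54 had a mean below 5 CPM.

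Replication-dependent histone genes, which are usually expressed in S phase, did not follow the replication enzymes. Of 21 tested, 3 were called higher (1 once genes averaging under 1 CPM were left out) and 8 lower, with a median of -0.53, and both hairpins lay above the vector at medians of 1.02 and 1.27. H2AC6 was at 19.3, 20.5 and 21.7 CPM in the libraries labelled shAhR-1, at 50.3, 49.7 and 51.2 CPM with shAhR-2 and at 7.42 ± 1.51 CPM in the vector (-1.30 ± 0.069 between the hairpins). Histone genes are near-identical copies, so reads of single members are uncertain, and libraries without poly(A) selection also hold their transcripts that lack a tail.

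Immediate early genes were called higher in 11 of 28 cases and lower in 12 (median -0.05). EGR1, a factor induced within minutes of stimulation, was at 15, 19.0 and 14.7 CPM against 5.15, 3.79 and 3.81 CPM (1.94 ± 0.12), with 2.48 ± 0.218 CPM in the vector, and DUSP5, a phosphatase that limits ERK, was lower (-1.64 ± 0.11). HOX genes, which mark position along the body axis, were called higher in 4 of 13 cases and lower in 6, with HOXD13 lower (-0.93 ± 0.058) and HOXC9 slightly higher (0.29 ± 0.074).

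Calls also depended on the class of gene. Protein-coding genes were called in 81.5% of 13357 cases, long noncoding genes in 58.8% of 957 and pseudogenes in 51.9% of 767, at median levels of 24.7, 1.14 and 0.801 CPM.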
